A study of Mus musculus with 6 samples.

Results

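The 9 genes described here encode nonsense-mediated decay (NMD) factors, and they were chosen by name, though with earlier results of these data known. They are Upf1, Upf2, Upf3a, Upf3b, Smg1, Smg5, Smg6, Smg8 and Smg9, which are 9 of the 52550 mouse genes in the deposited table. All 9 were found, and all 9 passed the filter on low counts, which kept 13396 genes. The RNA came from skeletal muscle of 3 male FLExDUX4 mice and 3 male WT littermates, labelled as 13 weeks old and as quadriceps, while the methods of the study name triceps and a younger age. FLExDUX4 mice carry a human DUX4 transgene at the Rosa26 locus, placed in inverted orientation between lox sites, and these animals received no Cre, so that DUX4 is present only through leaky low-level expression. WT littermates lack the transgene. DUX4 is the transcription factor whose misexpression in muscle is linked to facioscapulohumeral muscular dystrophy. No row of the table carries the name DUX4, so the transgene itself was not analysed here.

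NMD removes messenger RNAs on which a ribosome stops early, and it also sets the level of many normal transcripts. UPF1 is the RNA helicase at its centre, and UPF2 with UPF3A or UPF3B joins UPF1 to the exon junction complex that splicing leaves on a message. The kinase SMG1, held in check by its partners SMG8 and SMG9, phosphorylates UPF1. Phosphorylated UPF1 then recruits SMG6, which cuts the message, and SMG5, which helps to bring in other decay enzymes and to return UPF1 to its resting state. In cultured human muscle cells DUX4 is known to lower UPF1 protein and to impair NMD, which is a property of the protein and cannot be read from the messenger RNA counts here.

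The values are counts of QuantSeq 3′ reads, about 1 read for each messenger RNA whatever its length, summed by the authors over the mice of each genotype. The FLExDUX4 total held 13110125 counts on mouse genes and the WT total held 18367364. Levels are given as CPM (counts scaled to a common library size) after TMM scaling, with exact Poisson 95% intervals. Differences are log2 ratios of the FLExDUX4 total to the WT total, with Clopper-Pearson 95% intervals. Each genotype is 1 total, so there is no replicate check, no test of genotype and no p-value, and every interval covers counting error only. The spread between mice is unknown here. Each marker of skeletal muscle searched for had counts, and the 9 of them together made up 98648 CPM in the FLExDUX4 total and 99036 CPM in the WT total.

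The promoters of the 9 genes ranged from 53.3% GC for Smg8 to 72.3% for Upf1. All 9 were matched in the RefSeq promoter table (build GRCm38.p6), which gives 250 bases before and 50 after each gene's start. The median GC content of the 9 was 66.0%, against 52.7% over 32851 promoters, and the median ratio of observed to expected CpG was 0.881 against 0.384, the make-up of CpG-island promoters of broadly used genes. The 32851 promoters were not limited to genes with counts here. The promoters of Upf1 and Smg8 are shown because these members had the lowest and the highest log2 ratio of FLExDUX4 to WT counts. The Upf1 promoter lies at chr8:70353230-70353529 and the Smg8 promoter at chr11:87086728-87087027, both on the minus strand. Capitals mark each copy of CCGGAA, or TTCCGG on the other strand, the core letters bound by ETS family factors.
Upf1: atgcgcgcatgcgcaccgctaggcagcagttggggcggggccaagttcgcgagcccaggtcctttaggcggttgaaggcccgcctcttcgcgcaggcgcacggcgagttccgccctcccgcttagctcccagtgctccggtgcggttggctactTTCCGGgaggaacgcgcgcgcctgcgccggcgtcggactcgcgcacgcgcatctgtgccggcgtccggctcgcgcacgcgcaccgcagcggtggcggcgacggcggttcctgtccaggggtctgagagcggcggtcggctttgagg
Smg8: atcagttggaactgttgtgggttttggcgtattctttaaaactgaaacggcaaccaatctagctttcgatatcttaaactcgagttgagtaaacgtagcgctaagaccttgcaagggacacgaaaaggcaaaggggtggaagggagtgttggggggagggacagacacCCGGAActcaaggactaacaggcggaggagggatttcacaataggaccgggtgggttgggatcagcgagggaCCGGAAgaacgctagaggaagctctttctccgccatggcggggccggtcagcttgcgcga
The Upf1 window was 72.3% GC with 47 CpG pairs, and the Smg8 window was 53.3% GC with 18. The letters CCGGAA, searched on both strands, were in these 2 promoters of the 9 (22.2%) and in 14.9% of all promoters. CCAAT was in 4 of the 9 (44.4%) against 37.4% of all, and neither TATAAA nor CACGTG was in any of the 9, against 13.6% and 7.15%. The searched letters do not overlap one another as words. The motifs and the promoters shown were chosen after the ratios were known, and such matches are letters in a window, not evidence of binding.

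In WT muscle the members spanned about an order of magnitude. Upf2 had the highest level, 40.2 CPM (37.4 to 43.2), and Smg8 the lowest, 3.45 CPM (2.66 to 4.40). Between them came, in falling order, Upf3b, Smg1, Upf1, Upf3a, Smg6, Smg5 and Smg9. The neighbours Upf3b and Smg1, Upf1 and Upf3a, and Smg9 and Smg8 were not separated beyond counting error. In the FLExDUX4 total the order was Upf2, Upf3b, Smg1, Smg6, Upf1, Upf3a, Smg5, Smg8 and Smg9, in which Smg6 was not separated from Upf1, Upf1 from Upf3a, or Smg8 from Smg9. The UPF genes and the kinase thus stood above Smg5, Smg8 and Smg9 in both genotypes, and Smg6 stood below Upf1 and Upf3a in WT and beside them in FLExDUX4.

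**Figure D1:**
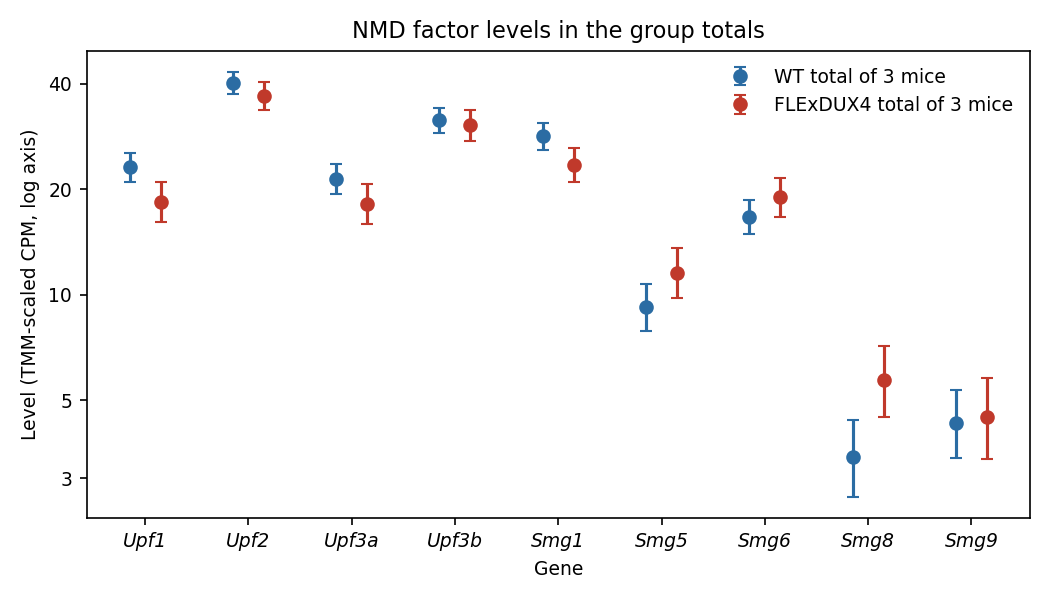
Level of each NMD factor (vertical axis, TMM-scaled CPM on a log axis) in the WT total (blue) and the FLExDUX4 total (red) of 3 mice each, with exact Poisson 95% intervals as bars. Upf1 was at 23.1 CPM in WT and 18.4 CPM in FLExDUX4, and Smg8 at 3.45 and 5.70 CPM.

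Upf1, the helicase on which every branch of NMD depends, had 239 counts in the FLExDUX4 total and 429 in the WT total. Its level was 18.4 CPM (16.2 to 20.9) in FLExDUX4 and 23.1 CPM (21.0 to 25.4) in WT, a log2 ratio of -0.33 (-0.56 to -0.10), the lowest of the 9. The FLExDUX4 level was therefore 0.798 of the WT level, short of the 1.5-fold used as a mark here. The gene lies at chr8:70331525-70353278 (GRCm38, minus strand), and its 3′ end overlaps the opposite-strand gene Cers1 by 68 bases, where Cers1 had 0 and 10 counts.

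The adaptors that bind UPF1 are encoded by Upf2, Upf3a and Upf3b. Upf2, whose protein bridges UPF1 and UPF3, had 479 and 746 counts in FLExDUX4 and WT, or 36.9 CPM (33.7 to 40.4) and 40.2 CPM (37.4 to 43.2). Its log2 ratio was -0.12 (-0.29 to 0.04). Upf3a and Upf3b are paralogs, and UPF3B, from the X chromosome, is the main form that contacts the exon junction complex. Upf3b had 395 and 583 counts, levels of 30.4 CPM (27.5 to 33.6) and 31.4 CPM (28.9 to 34.1), and a log2 ratio of -0.04 (-0.23 to 0.14). Upf3a had 236 and 398 counts, levels of 18.2 CPM (15.9 to 20.7) and 21.4 CPM (19.4 to 23.7), and a log2 ratio of -0.24 (-0.48 to -0.0016). The Upf3a interval only just excluded 0. The ratios of the 4 UPF genes were below 0, as were 6711 of the 13396 genes kept, and the intervals of Upf2 and Upf3b included 0. Their summed counts were 1349 and 2156, a log2 ratio of -0.16 (-0.26 to -0.06), which spike-in scaling moved to -0.44. In GRCm38 the protein-coding gene Upf2 lies at chr2:5951469-6056703 on the plus strand, Upf3a at chr8:13785615-13799193 on the plus strand and Upf3b at chrX:37091678-37110322 on the minus strand.

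The genes of the SMG1 kinase complex differed among themselves. Smg1, the kinase itself, had 305 counts in FLExDUX4 and 525 in WT, levels of 23.5 CPM (20.9 to 26.3) and 28.3 CPM (25.9 to 30.8), and a log2 ratio of -0.27 (-0.48 to -0.06). Smg8, the subunit that restrains the kinase, was the member with the highest ratio and the fewest reads in WT. It had 74 and 64 counts, levels of 5.70 CPM (4.48 to 7.16) and 3.45 CPM (2.66 to 4.40), and a log2 ratio of 0.72 (0.22 to 1.23), which is 1.65-fold. With spike-in scaling it was at 0.45 (-0.05 to 0.96), no longer past 1.5-fold and with an interval that included 0. Smg9, which holds SMG8 on the kinase, had 58 and 80 counts, levels of 4.47 CPM (3.39 to 5.78) and 4.31 CPM (3.42 to 5.36), and a log2 ratio of 0.06 (-0.46 to 0.56). Under TMM scaling the ratio was thus below 0 for Smg1, above 0 for Smg8 and close to 0 for Smg9, with wide intervals for Smg8 and Smg9. Smg1 lies at chr7:118131308-118243670 on the minus strand, Smg8 at chr11:87077732-87086774 on the minus strand, and Smg9 at chr7:24399619-24422778 on the plus strand. Within the span of Smg1 the same-strand unverified transcript Gm45084 had 21 and 30 counts of its own.

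The genes of the effectors that act on phosphorylated UPF1 had ratios above 0 under TMM scaling, Smg6 with an interval that included 0. Smg5, an adaptor that binds phosphorylated UPF1, had 150 and 171 counts in FLExDUX4 and WT, levels of 11.6 CPM (9.78 to 13.6) and 9.21 CPM (7.88 to 10.7), and a log2 ratio of 0.33 (0.0013 to 0.65), an interval that only just excluded 0. Smg6, the endonuclease, had 246 and 310 counts, levels of 19.0 CPM (16.7 to 21.5) and 16.7 CPM (14.9 to 18.7), and a log2 ratio of 0.18 (-0.06 to 0.43). Their summed counts were 396 and 481, a log2 ratio of 0.24 (0.04 to 0.43), which spike-in scaling moved to -0.04. Smg5 lies at chr3:88336260-88362338 and Smg6 at chr11:74925823-75164448, both on the plus strand. Smg6 overlaps the opposite-strand gene Srr by 126 bases, and Srr had 90 and 122 counts. Hic1, also on the opposite strand, lies 116 bases from Smg6 without overlap and had 64 and 97 counts. Whether the counting used strand is not given in the sources used here, so reads in such overlaps cannot be told apart.

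**Figure D2:**
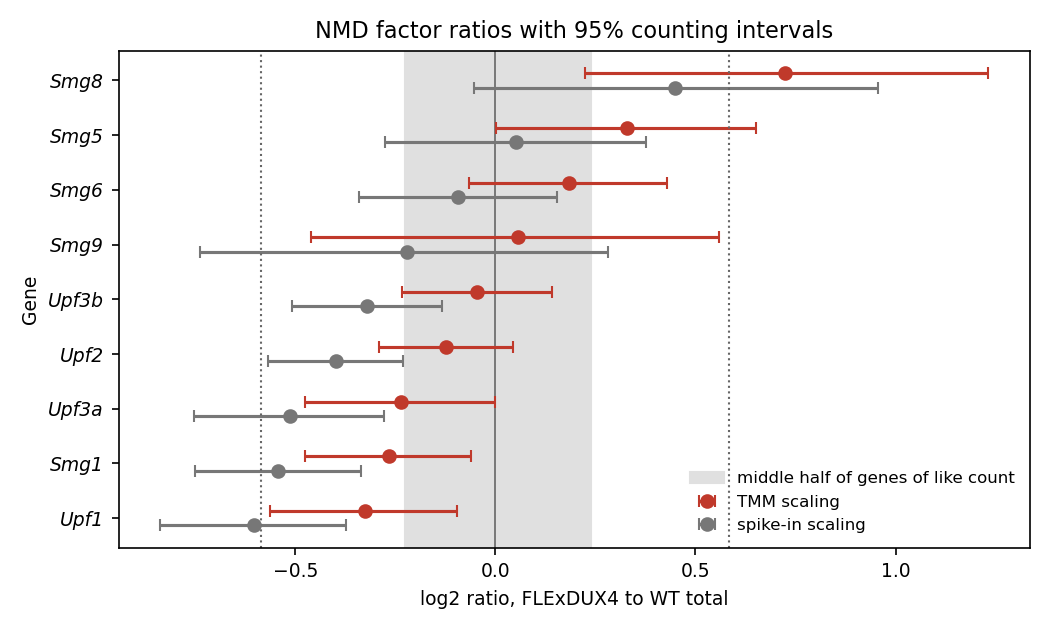
Log2 ratio of the FLExDUX4 to the WT total (horizontal axis) for each NMD factor, under TMM scaling (red) and spike-in scaling (grey), with 95% counting intervals, dotted lines at 1.5-fold and a grey band from the lower to the upper quartile of the 6153 genes with summed counts in the same range. TMM ratios ran from -0.33 for Upf1 to 0.72 for Smg8, and spike-in scaling shifted every ratio by -0.276.

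Genes kept with summed counts in the range of the members had quartiles of -0.23 and 0.24. Upf2, Upf3b, Smg6 and Smg9 lay between these quartiles, and Upf1, Upf3a, Smg1, Smg5 and Smg8 outside them. Only Smg8 was higher by at least 1.5-fold, 1 of 9, where 13.2% of all genes kept were, and no member was lower by at least 1.5-fold, where 13.5% were. The interval lay above 0 for 2 members, Smg5 and Smg8, against 20.5% of all genes kept, and below 0 for 3, Upf1, Upf3a and Smg1, against 20.6%. With upper quartile or gene-total scaling, no filter, or at least 10 counts in each total, the interval of Smg5 included 0 and 1 member lay above 0. Shares over all genes were not computed for those settings. Low-count genes scatter more, so the same shares were taken over the 6153 genes kept whose summed counts fell between 138 and 1225, the range of the members, a comparison chosen after the values were seen. There 6.76% were higher and 6.11% lower by at least 1.5-fold, and the interval lay above 0 for 20.8% and below 0 for 19.3%. The members' counts were near these shares, and nothing particular to NMD factors is read from them. Many more genes had an interval that excluded 0 than counting error alone would leave outside a 95% interval. The median log2 ratio of the members was -0.04, with 4 above 0 and 5 below, beside -0.001 over all genes kept and quartiles of -0.28 and 0.28. All 9 together had 2182 and 3306 counts, or 168.2 and 178.1 CPM, a log2 ratio of -0.08 (-0.16 to -0.0046).

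Spike-in scaling changed the sign of 2 members, Smg6 and Smg9, both with intervals that included 0 under TMM scaling, and the other scalings tried changed none. The table also holds 99 spike-in sequences, control RNAs, with 220016 counts in the FLExDUX4 total and 259913 in the WT total. The methods of the study do not give the amount added or the step, so equal addition is an assumption of this scale. Scaled to those counts, every log2 ratio was shifted by -0.276, and the median of all genes kept became -0.28. On that scale Upf1 was at -0.60 and past 1.5-fold lower, Smg1 at -0.54 and Upf3a at -0.51. Smg6 was at -0.09 and Smg9 at -0.22, Smg5 was at 0.05, and Smg8 was at 0.45. Members with an interval below 0 then numbered 5 and those above 0 numbered 0, beside 47.1% and 7.59% of all genes kept on that scale, and 1 was lower and 0 higher by at least 1.5-fold, beside 23.7% and 7.82%. The order of the members is the same on both scales, since the shift is common to all genes. In bulk muscle, fewer cells of a type and less RNA per cell cannot be told apart on either scale. On the spike-in scale, uneven addition of spike-ins cannot be told apart from a difference in RNA amount.

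The balance between partner proteins' messages does not depend on the scaling, because both genes are read in the same total. The 6 pairs compared were chosen after the values were seen, their intervals are not adjusted for 6 pairs, and they are given as a description. Per Smg1 count there were 0.243 Smg8 counts in FLExDUX4 and 0.122 in WT, a difference of log2 ratios of 0.99 (0.45 to 1.54). Relative to Smg9 the Smg8 difference was 0.67 (-0.05 to 1.40), which counting error alone could give. The Smg8 counts thus differed relative to Smg1 by more than counting error, and relative to Smg9 they did not.

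Smg8 with Smg1 was the 1 pair of the 6 whose interval excluded 0. No share over other gene pairs was computed, so nothing particular to these pairs is read from that count. Between the effectors, the log2 ratio of Smg5 differed from that of Smg6 by 0.14 (-0.27 to 0.56). The paralogs stood at 0.597 Upf3a counts per Upf3b count in FLExDUX4 and 0.683 in WT, a difference of -0.19 (-0.50 to 0.11). Upf1 relative to Upf2 differed by -0.20 (-0.49 to 0.08), and Upf1 relative to its kinase Smg1 by -0.06 (-0.37 to 0.25). For these 4 pairs no difference was detectable at this depth, although the intervals allow sizeable ones.

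**Figure D3:**
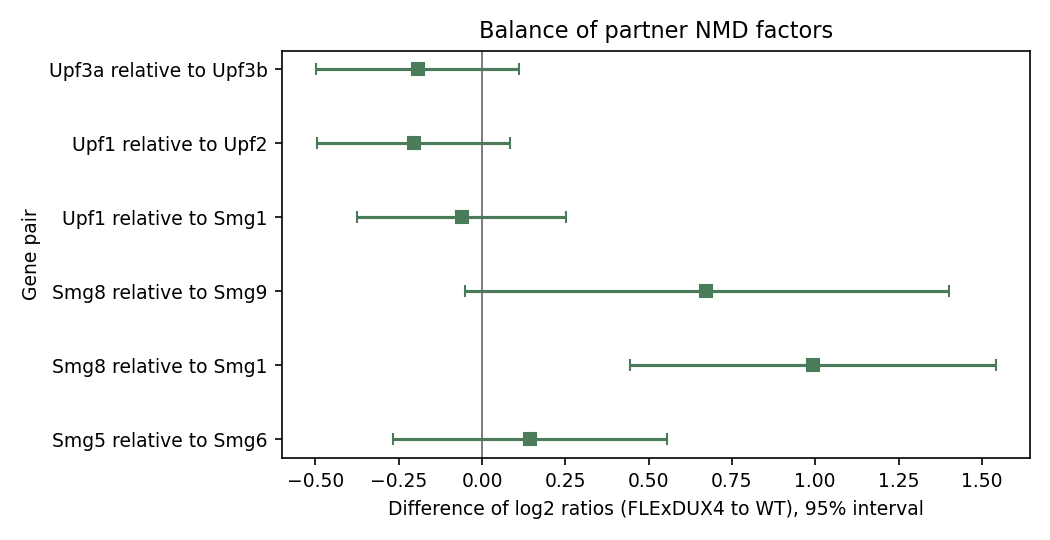
Difference of log2 ratios (FLExDUX4 to WT) between the genes of each pair (horizontal axis), with 95% counting intervals as bars. Smg8 relative to Smg1 (0.99) was the 1 of 6 pairs whose interval excluded 0.

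The rest of the NMD machinery was described with the same measure. A list of 6 other NMD factors held Dhx34, Nbas, Ncbp1, Ncbp2, Pnrc2 and Mov10. All 6 passed the filter, with a median log2 ratio of -0.08. The interval lay above 0 for 2 of them, Nbas at 0.52 (0.19 to 0.84) and Pnrc2 at 0.36 (0.11 to 0.61), and below 0 for Mov10, beside background shares of 20.5% and 20.6%. With spike-in scaling the intervals of Nbas (-0.08 to 0.56) and Pnrc2 (-0.17 to 0.33) included 0. NBAS and PNRC2 are cofactors of UPF1, and MOV10 is an RNA helicase that associates with it. Mov10 had 1 count in FLExDUX4 and 20 in WT, a log2 ratio of -3.26 (-9.18 to -1.16). Its FLExDUX4 count lay under the floor of 3 counts and it passed the filter through the WT total alone, so the size of this ratio carries little weight.

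SMG1 belongs to a family of large kinases that the TTT and R2TP chaperones assemble. Of the 5 assembly genes, Tti2 with 67 and 56 counts was at 0.77 (0.24 to 1.31), Ruvbl1 with 215 and 223 counts at 0.46 (0.19 to 0.74), and Telo2 with 29 and 79 counts at -0.91 (-1.60 to -0.30). With spike-in scaling the intervals of Tti2 (-0.03 to 1.04) and Ruvbl1 (-0.09 to 0.46) included 0. That of Telo2 (-1.87 to -0.57) did not. Intervals lay above 0 for 3 of the 5 and below 0 for 1, where 20.5% and 20.6% of all genes kept had such intervals, and nothing particular to the list is read from so few genes. Among 5 kinases related to SMG1, Prkdc, the DNA repair kinase, had 80 and 59 counts and a log2 ratio of 0.95 (0.45 to 1.47). Atr, the replication checkpoint kinase, had 64 and 146 counts and a log2 ratio of -0.67 (-1.12 to -0.24). Mtor, the growth kinase, was at 0.07 (-0.21 to 0.35). The kinase family thus had no common direction, and Smg1 at -0.27 lay within its range.

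Upstream of the NMD factors, the exon junction complex had 10 of 11 genes kept, Pym1 being at 0 in both totals, with a median of -0.04. None was past 1.5-fold, where 13.2% of all genes kept were higher and 13.5% lower. The interval lay above 0 for 1, Casc3 at 0.27 (0.02 to 0.53), and below 0 for 2, Magoh at -0.48 (-0.75 to -0.22) and Pnn at -0.23 (-0.42 to -0.04), beside 20.5% and 20.6%. With spike-in scaling the Casc3 interval (-0.26 to 0.25) included 0. The most counted gene of the complex, the splicing coactivator Srrm1, was at -0.05 (-0.14 to 0.03). Termination factors and poly(A)-binding proteins had 5 of 6 genes kept and a median of 0.01, Gspt2 having only 2 counts in each total. Intervals lay above 0 for 1 of the 5 and below 0 for 2, beside 20.5% and 20.6%. Pabpc4, a poly(A)-binding protein, had 4303 and 6996 counts and a log2 ratio of -0.18 (-0.24 to -0.13).

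Downstream, the lists of decay enzymes had medians of -0.21 for 9 genes of decapping and 5′ to 3′ decay, -0.16 for 13 deadenylation genes and 0.02 for the 14 of 15 exosome genes kept. Exosc6 was at 0 in both totals. Intervals lay above 0 for 1 and below 0 for 4 of the decapping and 5′ to 3′ decay genes. They lay so for 1 and 5 of the deadenylation genes and for 3 and 1 of the exosome genes. The shares over all genes kept were 20.5% and 20.6%. Dcp1b, a decapping cofactor, had 15 and 96 counts and a log2 ratio of -2.12 (-3.05 to -1.37). Pnrc1, a nuclear decapping regulator and the most counted of that list, was at 0.24 (0.14 to 0.35), which spike-in scaling moved to -0.03. Pan2, the catalytic subunit of a deadenylase, was at -0.86 (-1.29 to -0.47), and Cnot6l, another deadenylase, at -0.39 (-0.56 to -0.23). In the same list Cnot1 was at 0.36 (0.17 to 0.54), which spike-in scaling moved to 0.08 (-0.11 to 0.26). Exosc8, a subunit of the exosome ring, was at -0.93 (-1.36 to -0.52), and Wdr61, of the helicase complex that feeds the exosome, at 0.36 (0.12 to 0.60). Spike-in scaling moved Wdr61 to 0.08 (-0.16 to 0.32). Over all 8 lists, 67 genes were kept, 30 above 0 and 37 below, with 3 higher and 6 lower by at least 1.5-fold, intervals above 0 for 13 and below 0 for 17, and a median of -0.04. These counts, too, stood beside background shares of 13.2%, 13.5%, 20.5% and 20.6%.

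**Figure D4:**
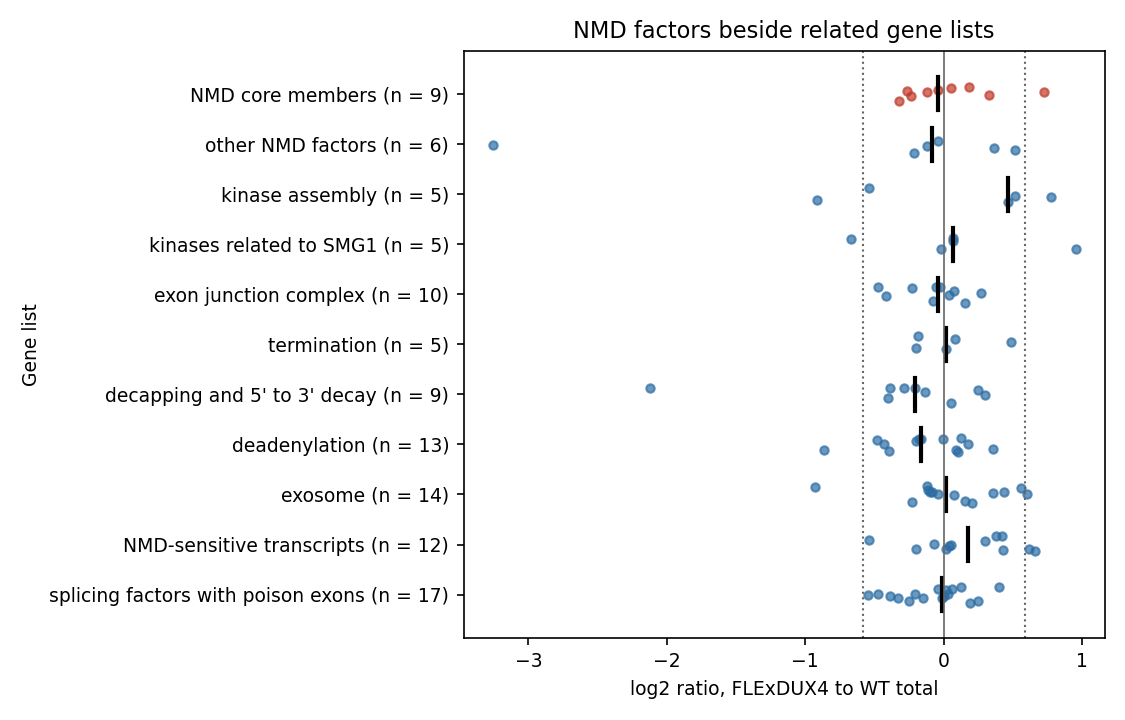
Log2 ratio of the FLExDUX4 to the WT total (horizontal axis, TMM scaling) for each gene kept in 11 lists, 1 point per gene, with NMD factors in red, black bars at list medians and dotted lines at 1.5-fold. The 9 NMD factors lay between -0.33 and 0.72, and of the other genes Dcp1b was at -2.12 and Mov10, with 1 count in FLExDUX4, at -3.26.

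Transcripts that NMD is known to degrade were read for their own levels. Among 14 such genes, stress-response messages such as Atf4 and noncoding hosts of small RNAs such as Gas5, 12 were kept, 9 above 0 and 3 below, with a median of 0.17. Tbl2 had 83 and 75 counts and a log2 ratio of 0.66 (0.19 to 1.13), and it was 1 of 2 past 1.5-fold higher, the other being Trib3 with 15 and 14 counts at 0.61 (-0.54 to 1.78). With spike-in scaling Tbl2 was at 0.39 (-0.08 to 0.86). Atf4, the most counted, had 1645 and 2321 counts and a log2 ratio of 0.02 (-0.07 to 0.11). Intervals lay above 0 for 4 and below 0 for 1 of the 12, beside background shares of 20.5% and 20.6%, and 13.2% of all genes kept were higher by at least 1.5-fold. With spike-in scaling the median of this list was -0.10, beside -0.28 over all genes kept. Under TMM scaling it was 0.17 beside -0.001, since the spike-in shift is common to all genes. With no filter on low counts its median was 0.04, as Snhg15 with 2 and 8 counts entered, so its size depended on the filter.

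Splicing factors that carry poison exons, whose alternative messages are NMD targets, gave a median of -0.02 over 17 genes, with 0 past 1.5-fold in either direction, where 13.2% of all genes kept were higher and 13.5% lower, and intervals above 0 for 2 and below 0 for 6, beside background shares of 20.5% and 20.6%. Both lists together had 29 genes kept, 17 above 0 and 12 below, with intervals above 0 for 6 and below 0 for 7 and a median of 0.02. Hnrnpa2b1, the most counted, was at 0.06 (-0.02 to 0.14). Counts per gene do not separate poison-exon messages from productive ones, so this list gives the sum of both.

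Markers of other cells in muscle also differed between the totals. Under TMM scaling the 5 blood markers were all above 0, as were 6685 of the 13396 genes kept. Together they made up 1279 CPM in FLExDUX4 and 1020 CPM in WT. Their median log2 ratio was 0.33, which spike-in scaling moved to 0.05. The 4 adipocyte markers summed to 147.4 and 85.3 CPM, with Cfd at 0.88 (0.76 to 0.99) and Adipoq at 0.70 (0.46 to 0.95) but Lep, with 12 and 31 counts, at -0.82 (-1.95 to 0.15). Endothelial markers summed to 147.1 and 168.4 CPM, with Kdr at -0.56 (-0.70 to -0.42), Pecam1 at 0.06 (-0.07 to 0.20) and Cdh5 at -0.03 (-0.19 to 0.14), so that the lower sum rested on Kdr. Macrophage markers summed to 19.1 and 21.1 CPM, mostly Csf1r at 0.01 (-0.26 to 0.28), while Cd68 was at -0.64 (-1.44 to 0.07) and Adgre1 at -0.66 (-1.44 to 0.04) on few counts, for a list median of -0.64. Fibroblast markers summed to 1048 and 939 CPM, with Col1a1 at 0.53 (0.47 to 0.60), Dcn at 0.04 (-0.001 to 0.08) and Pdgfra at 0.05 (-0.21 to 0.30), so that the higher sum rested mostly on Col1a1. With spike-in scaling the list medians were 0.28 for adipocyte, -0.30 for endothelial, -0.92 for macrophage and -0.23 for fibroblast markers. No marker of these lists was at 0 in both totals. Their part in the NMD factor ratios was not tested.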

How the data were processed

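The deposited table holds, per the file headers, raw counts per gene for each genotype as a total, and only these 2 columns were used. According to the methods and the submitters' processing notes, the authors trimmed QuantSeq reads with cutadapt 1.16, aligned them with STAR 2.5.3a to GRCm38 joined to spike-in sequences, and featureCounts 1.6.2 is named among the tools. Left aside were 6 per-sample columns with names found in none of the labels, and columns of the authors' own comparison (mean normalized value, fold change, its error, test statistic and p-values), none of which entered any step.

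Totals (13110125 and 18367364 counts) were brought to a common scale with the TMM method of edgeR 4.0.16, run in R 4.3.3, over genes kept by filterByExpr, spike-ins left out. A pseudocount of 0.5 was added for log2 ratios. Intervals (95%, Clopper-Pearson or exact Poisson) were computed in Python 3.11.15 with scipy 1.17.1, and a conditional odds ratio gave those of the pairs. They cover counting error only. A floor of 3 counts equals 0.229 CPM in FLExDUX4 and 0.163 CPM in WT. The interval formula was tried on simulated totals with counting error alone, which says nothing on spread between mice.

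All 9 NMD factors are named. Of each other list, genes past 1.5-fold whose interval excluded 0 (at most 4) and the most counted gene are named. A gene of the list of other NMD factors and 1 marker list are not reported here and are left out of all counts and medians of lists. Nbas, Trib3, Snhg15, Cnot1, Pecam1, Cdh5, Cd68, Adgre1, Casc3, Magoh, Pnn, Col1a1, Pdgfra, Gas5 and Lep, and genes at or near 0, were named after their values were seen. The members and lists were chosen with earlier results of these data known. Gene positions are from a GRCm38 annotation whose starts equalled the deposited positions for all 9. Other scalings, filters, pseudocounts and a 2-fold threshold were tried.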

Additional observations from a re-analysis of the deposited data

How the results depend on the processing

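Outside spike-in scaling, 7 settings (other scalings, filters and pseudocounts) moved the ratios of the 9 NMD factors by at most 0.030. Spike-in scaling moved Upf1 to -0.60, Upf2 to -0.40, Upf3a to -0.51, Upf3b to -0.32, Smg1 to -0.54 and Smg6 to -0.093, by construction the same shift for every gene. It changed the members with an interval above 0 from 2 to 0, those below 0 from 3 to 5, those higher by 1.5-fold from 1 to 0 and those lower by 1.5-fold from 0 to 1 (Upf1), beside 7.59%, 47.1%, 7.82% and 23.7% of all genes kept on that scale. With upper quartile scaling, gene-total scaling, no filter or at least 10 counts in each total, 1 member had an interval above 0, Smg5 being lost. Shares over all genes were not computed under these settings. At a 2-fold threshold 0 members were higher and 0 lower. No share over all genes was computed at that threshold, so nothing is read from these counts. No paired analysis was possible because only genotype totals were used, and for the same reason no replicate could be left out. Depth limits Smg8 and Smg9 most, with 138 counts each over both totals.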
